A study of Mus musculus with 6 samples.

Results

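The genes of the pyruvate dehydrogenase complex, of the kinases that switch it off and of pyruvate carboxylase were followed in epididymal white adipose tissue (WAT) of male C57BL/6 mice. Members were chosen by name: Pdk1, Pdk2, Pdk3 and Pdk4 (kinases), Pdha1, Pdhb, Dlat, Dld and Pdhx (subunits) and Pcx (pyruvate carboxylase). Of these 10 symbols, 9 stood alone on at least 1 non-control probe set, of 12393 genes so annotated in all. They had 14 probe sets, and no probe set carried the symbol Pdhx alone. All 14 passed the filter on dim probe sets, which was set on the mean signal over all 6 arrays and not on one group.

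The timed sleep restriction (TSR) mice had been kept awake by gentle handling for 6 h per day on 5 days, during the early part of their resting phase, and the controls had no sleep restriction. Both groups were wild-type, 9 to 11 weeks old by the study's methods, and were killed at Zeitgeber time (ZT) 18, in the active phase. Each group had 3 arrays (Affymetrix mouse expression arrays), 1 per sample, and the sources do not say whether a sample was a single mouse or a pool. The p-values therefore measure the spread between these samples, which may be partly technical, and with 3 arrays against 3 the number of arrays limits the precision. WAT holds other cells besides adipocytes, so fewer cells of a type and less RNA per cell cannot be told apart in any value given here.

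The pyruvate dehydrogenase complex turns pyruvate, the end product of glycolysis, into acetyl-CoA inside mitochondria, and so commits glucose carbon to oxidation or to fatty acid synthesis. Its E1 enzyme is built from the subunits encoded by Pdha1 and Pdhb, its E2 enzyme is encoded by Dlat and its E3 enzyme by Dld. Pyruvate dehydrogenase kinases phosphorylate the E1 alpha subunit and thereby inactivate the complex. Pdk4 is the family member known for its rise in fasting, when tissues spare glucose and burn fatty acids. Pyruvate carboxylase, encoded by Pcx, leads pyruvate into oxaloacetate instead and is abundant in fat tissue, where it serves lipid synthesis and glyceroneogenesis.

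Most members moved one way and Pdk4 moved the other. The subunit genes rose in TSR WAT on 8 of 8 probe sets, by 1.23 to 2.01 times, Pdk1 and Pdk2 rose by 1.39 to 1.48 times, and Pcx rose by 1.18 times. Pdk4 fell to 0.356 times its control signal. Pdk3 did not pass the test. In counts, 12 of the 14 probe sets were higher and 1 was lower in TSR at an adjusted p under 0.05 (limma on log2 signals, Benjamini-Hochberg over 14707 probe sets). Calls were common on these arrays: 46.6% of all tested probe sets were called, 25.6% higher and 21.0% lower. With each array centred on its median, in place of the authors' scaling, all tested probe sets shifted by -0.11 (log2), and the calls split into 2452 higher and 4363 lower, against 3768 higher and 3082 lower with the deposited signals. The TSR and control arrays did not overlap on 13 of the 14 probe sets, 12 of them higher and 1 lower, as was the case on 31.4% (higher) and 25.2% (lower) of all tested probe sets. The median log2 fold change of TSR over control was 0.40 over the 14 probe sets and 0.04 over all tested probe sets.

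**Figure D1:**
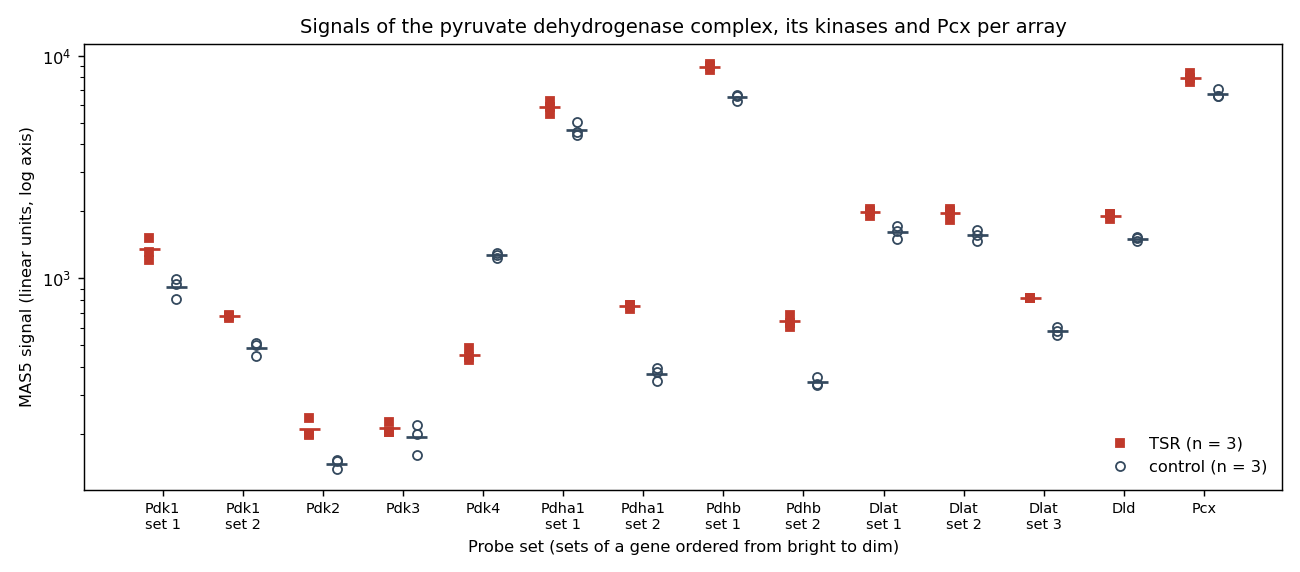
MAS5 signal of the 14 probe sets on each array, on a log axis, for TSR (left in each pair) and control (right), with group means as bars. A gene's probe sets are numbered from bright to dim. Only the Pdk4 probe set had its 3 TSR arrays below its 3 control arrays, and only the Pdk3 probe set had groups that overlapped.

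Pdk4 stood furthest from the other members. Its single probe set (1417273_at) had MAS5 signals of 429, 445 and 486 on the TSR arrays, against 1238, 1301.5 and 1277.5 on the control arrays. The groups were far apart: the brightest TSR array lay well below the dimmest control array. The means were 453 ± 29.6 in TSR and 1272.5 ± 31.8 in control (SD, n = 3 each). The log2 fold change was -1.49 (SE 0.06, limma adjusted p = 4.6e-07), and its 95% interval ran from -1.62 to -1.36, or 0.324 to 0.391 times the control signal. In order of log2 fold change it was number 44 from the largest fall among 14707 probe sets. At least 2-fold falls that passed the test were made by 1.21% of the tested probe sets, and Pdk4 was the 1 member among them.

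Pdk1, whose product phosphorylates all known E1 alpha sites and is best known as a hypoxia-responsive gene, was higher on both of its probe sets. The brighter set (1423747_a_at) had signals of 1317, 1211 and 1523 in TSR, against 944, 806 and 995 in control. The groups did not overlap, although the arrays within each group spread more widely than for most other members. The log2 fold change was 0.56 (SE 0.10, 95% interval 0.34 to 0.78, adjusted p = 0.0017, limma). The dimmer set (1423748_at) had means of 676.5 ± 10.8 in TSR and 488 ± 33.9 in control (SD, n = 3 each), a log2 fold change of 0.47 (adjusted p = 0.00040, limma). Both probe sets of Pdk1 thus passed the threshold in the same direction.

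Pdk2, the most widely expressed kinase of the family, had signals of 198, 235 and 199.7 in TSR, against 151, 153 and 139 in control. All TSR arrays lay above all control arrays. The log2 fold change was 0.51 (SE 0.10, 95% interval 0.28 to 0.75, adjusted p = 0.0037, limma).

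Pdk3 had signals of 227, 205 and 205 in TSR, against 162, 201 and 219 in control. The groups overlapped, with control replicate 3 above 2 of the TSR arrays and control replicate 1 below all others. The log2 fold change was 0.14 (SE 0.12, adjusted p = 0.38, limma). Its 95% interval, 0.909 to 1.33 times the control signal, holds a small fall as well as a rise of the size seen for several subunits, so no difference was detectable at this number of arrays.

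**Figure D2:**
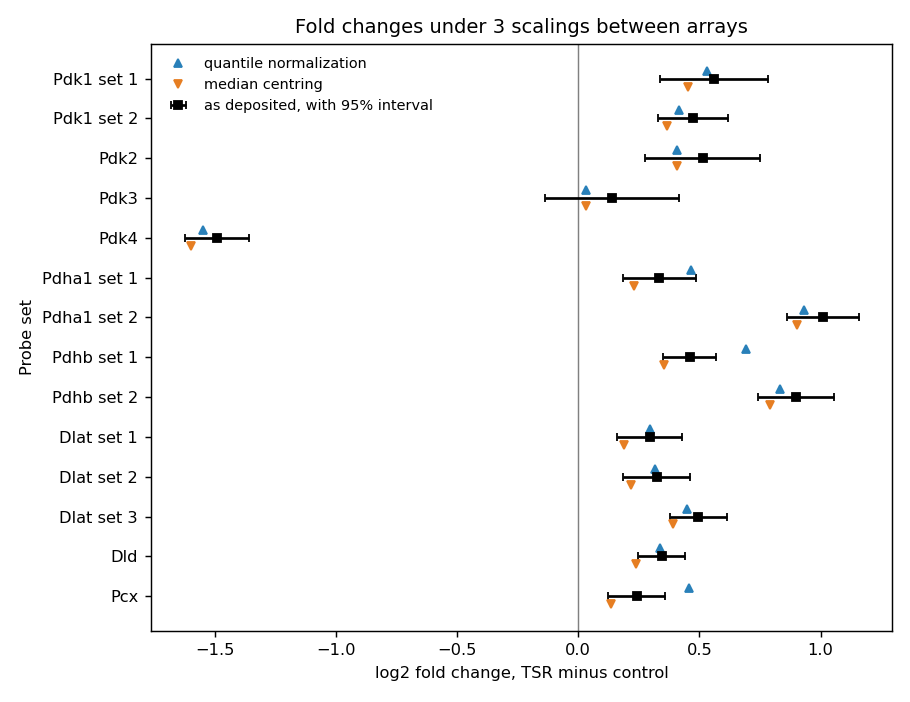
Log2 fold change of TSR over control for the 14 probe sets, under 3 scalings between arrays: as deposited (squares, with the 95% interval from limma), quantile normalization (upward triangles) and median centring (downward triangles). With the deposited signals Pdk4 lies at -1.49, the interval of Pdk3 crosses 0, and the 12 other probe sets lie between 0.24 and 1.01.

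Because all kinase genes were read from the same arrays, the change of Pdk4 against each of the other kinases could be taken within an array, where a scaling factor cancels. The level of such a difference holds the brightness of the probes themselves, so only its change between groups was read. Log2 Pdk4 minus log2 Pdk1 (brighter set) was -1.57 ± 0.11 in TSR and 0.48 ± 0.18 in control (SD, n = 3 each), a change of -2.05. For Pdk2 it was 1.10 ± 0.18 in TSR and 3.11 ± 0.08 in control, a change of -2.0. For Pdk3 it was 1.10 ± 0.17 in TSR and 2.72 ± 0.20 in control, a change of -1.63. Pdk4 signal relative to Pdk1, Pdk2 and Pdk3 was thus 0.241, 0.249 and 0.323 times that in control. No TSR array overlapped a control array in any of the 3 differences. The exact permutation test (two-sided) gave p = 0.1 for each, the smallest that 3 against 3 arrays allow, and 0.1 after Benjamini-Hochberg adjustment over the 3 comparisons.

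**Figure D3:**
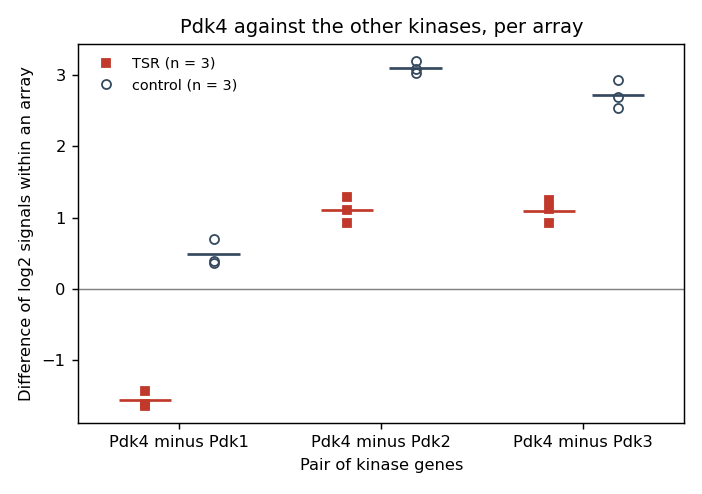
Log2 signal of Pdk4 minus log2 signal of Pdk1, Pdk2 and Pdk3 on the same array, for the 3 TSR arrays (left in each pair) and the 3 control arrays (right), with group means as bars. Each TSR group lies below its control group, with changes of -2.05, -2.0 and -1.63.

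The E1 genes rose on all of their probe sets. For Pdha1, which encodes the subunit that carries the phosphorylation sites, the brighter set (1418560_at) read 5906, 6241 and 5476 in TSR, against 4400.5, 5024 and 4549 in control. These groups did not overlap, and the change was small, with a log2 fold change of 0.34 (SE 0.07, adjusted p = 0.0031, limma). The dimmer set (1449137_at) read 761, 762 and 729 in TSR, against 394, 345 and 380.1 in control. Its log2 fold change was 1.01 (SE 0.07, adjusted p = 6.0e-06, limma), the largest rise among the members. It was the 1 member set with a rise of at least 2-fold that passed the test, as did 2.21% of all tested probe sets.

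Pdhb, the partner subunit of E1, also rose on both of its probe sets. Its bright set (1416090_at) read 9014, 9144 and 8623 in TSR, against 6673, 6553 and 6251.5 in control, and its log2 fold change was 0.46 (SE 0.05, adjusted p = 9.4e-05, limma). Its dim set (1448214_at) read 632, 686 and 605 in TSR, against 331, 363 and 337 in control, and its log2 fold change was 0.90 (SE 0.07, adjusted p = 1.7e-05, limma). In both probe sets the groups were apart. With quantile normalization the log2 fold change of the bright set was 0.69.

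Dlat, which encodes the E2 core, had 3 probe sets with smaller rises. Set 1426264_at averaged 1985 ± 76.9 in TSR and 1620 ± 112 in control (SD, n = 3 each), with a log2 fold change of 0.29 (adjusted p = 0.0034, limma). Set 1426265_x_at, whose suffix marks probes that may bind other transcripts, had a log2 fold change of 0.32 (adjusted p = 0.0026, limma). Set 1452005_at averaged 818.5 ± 1.60 in TSR and 581 ± 23.0 in control, with a log2 fold change of 0.50 (adjusted p = 9.0e-05, limma). The TSR and control arrays were apart on each of these 3 sets. With median centring the log2 fold change of set 1426264_at was 0.19, still past the threshold (adjusted p = 0.026, limma).

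Dld, whose E3 enzyme is shared with the 2-oxoglutarate and branched-chain dehydrogenases and the glycine cleavage system, read 1948.5, 1854.5 and 1938 in TSR, against 1469, 1529 and 1522 in control. The groups did not overlap and the log2 fold change was 0.34 (SE 0.04, adjusted p = 0.00027, limma).

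Set against the mean of the subunits' brightest probe sets on the same array (Pdha1, Pdhb, Dlat and Dld, in log2), Pdk4 was -3.05 ± 0.11 in TSR and -1.20 ± 0.02 in control (SD, n = 3 each), a change of -1.85. The same change was 0.20 for Pdk1, 0.15 for Pdk2 and -0.22 for Pdk3, and for these 3 kinases the TSR and control arrays overlapped. For the regular Pcx probe set it was -0.12, without overlap. That order of Pcx and the subunits depended on the scaling: with quantile normalization the log2 fold change was 0.46 for Pcx and 0.30 to 0.69 for the brightest sets of Dlat, Dld, Pdha1 and Pdhb. Of the kinases, Pdk4 was thus the one for which the TSR and control arrays did not overlap in their distance from the subunits.

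The size of the rise depended on the probe set that was read. For the 5 pairs of a dimmer probe set with the brightest one of its gene, the within-array log2 difference was larger in TSR by 0.68 for Pdha1, 0.44 for Pdhb, 0.20 for Dlat 1452005_at and 0.03 for Dlat 1426265_x_at, and changed by -0.09 for Pdk1. The groups were apart in the first 3 of these and overlapped in the other 2. The two-sided exact permutation p was 0.1 for each of the 3 and 0.7 and 0.5 for the other 2. The pattern was general on these arrays: of 3236 genes with several tested probe sets, 69.2% had a higher log2 fold change in the dimmest than in the brightest, with a median difference of 0.16. The deposited table does not place a probe set along its transcript.

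Pcx is one of the transcripts for which this array type also carries control probe sets along the message. Its regular probe set (1416383_a_at) read 7946, 8332 and 7596 in TSR, against 6558, 7050.5 and 6595 in control. The groups did not overlap, and the log2 fold change was 0.24 (SE 0.05, 95% interval 0.12 to 0.36, adjusted p = 0.0055, limma). Of all members it was the call nearest to the limit: with each array centred on its median the log2 fold change was 0.13 and the adjusted p was 0.142 (limma), and with quantile normalization the log2 fold change was 0.46.

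The 4 Pcx control probe sets were left out of the test across all probe sets and are given as values. The 3′ set averaged 6022 ± 298 in TSR and 5236 ± 198 in control (SD, n = 3 each), 1.15 times the control. The 5′ set averaged 213 ± 9.40 in TSR and 148 ± 7.29 in control, 1.44 times. The 2 middle sets, MA and MB, averaged 189 ± 3.12 and 600.6 ± 55.4 in TSR, against 113 ± 4.71 and 178 ± 19.1 in control, 1.68 and 3.37 times. In each of the 4 sets all TSR arrays lay above all control arrays (p = 0.1 in an exact two-sided permutation test, as low as this design goes). The ratio for this 1 gene therefore ran between 1.15 and 3.37 with the probes used, and the regular set lay near the low end.

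**Figure D4:**
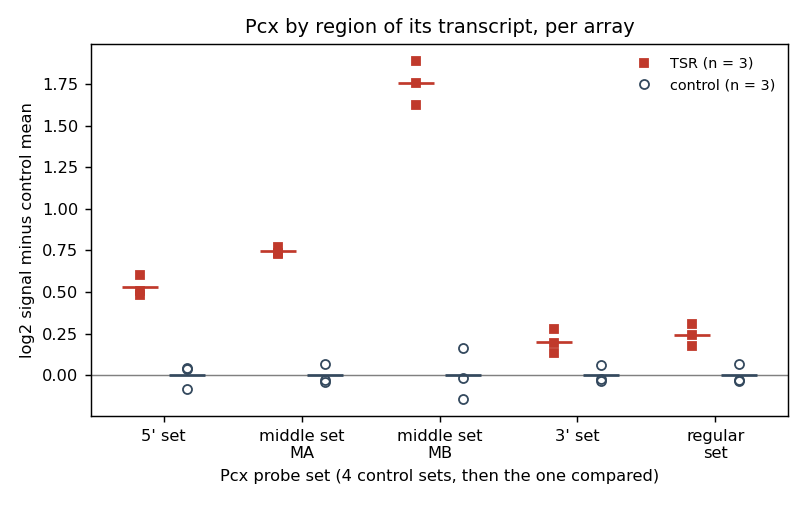
Log2 signal of each array minus the mean of the control arrays, for the 4 control probe sets of Pcx and its regular probe set, with TSR left and control right in each pair and group means as bars. The TSR means lie at 0.53 (5′), 0.75 (MA), 1.76 (MB), 0.20 (3′) and 0.24 (regular), and no TSR array overlaps a control array.

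The 5′ and 3′ control probe sets give a measure of how far labelled RNA reached along a message. Log2 5′ minus 3′ signal of Pcx was -4.82 ± 0.13 in TSR and -5.15 ± 0.13 in control (SD, n = 3 each). The same difference was larger in TSR by 0.55 for β-actin and by 0.66 for Gapdh. It was larger in TSR, without overlap, in 3 of 5 pairs from mouse transcripts, by 0.33 to 0.66. The poly-A RNAs that are added to the sample before labelling gave the same in 8 of 9 pairs, by 0.39 to 1.52. For comparison, the log2 fold changes of the subunit probe sets were 0.29 to 1.01. Of the pairs from hybridization controls, 1 of 8 was larger in TSR without overlap, and 1 pair of BioC was smaller without overlap (-0.16). Most of the added RNAs and hybridization controls are read by more than 1 pair, so these pairs are not independent. The 1 larger hybridization pair was of BioB (0.68), and another pair for the same control gave -0.32 with overlap. The difference between the groups in 5′ minus 3′ signal moved with the rise of the dim probe sets, and its part in the member results was not tested. The Pdk4 fall was read from a single probe set.

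Promoters of the members are shown because genes of one complex moved together while Pdk4 did not. The 250 bases before the start of each gene were taken from RefSeq (GRCm38.p6), 13 windows for the 10 listed genes, and searched on both strands for CACGTG (the E-box to which CLOCK and BMAL1 bind), AGGTCA (a nuclear receptor site), GTAAACA (a FOXO site), CCAAT and GGGCGG (a GC box). No listed match overlapped another. Matches stand in capitals below, so that ATTGG marks CCAAT on the other strand, and each window reads 5′ to 3′ towards the gene. The windows are Pdk4 at chr6:5496279-5496528, Pdk2 at chr11:95041372-95041621 and Pdhb at chr14:8172993-8173242, all on the minus strand.
Pdk4: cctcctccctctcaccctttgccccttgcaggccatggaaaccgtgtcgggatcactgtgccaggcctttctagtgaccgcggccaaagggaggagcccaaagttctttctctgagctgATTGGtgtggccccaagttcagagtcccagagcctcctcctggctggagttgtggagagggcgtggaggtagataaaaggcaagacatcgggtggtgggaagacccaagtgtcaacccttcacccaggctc
Pdk2: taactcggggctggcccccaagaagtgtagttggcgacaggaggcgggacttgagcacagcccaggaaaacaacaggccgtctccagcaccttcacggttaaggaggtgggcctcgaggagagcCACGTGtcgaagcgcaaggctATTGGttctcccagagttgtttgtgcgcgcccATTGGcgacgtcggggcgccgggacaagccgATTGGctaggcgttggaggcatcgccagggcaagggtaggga
Pdhb: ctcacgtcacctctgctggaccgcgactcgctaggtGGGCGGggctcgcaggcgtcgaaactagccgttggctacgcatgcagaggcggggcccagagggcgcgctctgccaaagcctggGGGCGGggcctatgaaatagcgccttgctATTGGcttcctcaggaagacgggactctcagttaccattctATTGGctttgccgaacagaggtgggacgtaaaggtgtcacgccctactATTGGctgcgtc
The Pdk4 window, of the member that fell, held 1 CCAAT match, whose first base lay at -131 from the start. The Pdk2 window shown, of a kinase that rose, held the E-box at -126 and 3 CCAAT matches. The Pdhb window held 3 CCAAT and 2 GGGCGG matches. Of the windows not shown, the other Pdk2 window and the Pdha1 window held 0 matches. Dld held 1 CCAAT, as did Pdk4, and Dlat held 1 GGGCGG. Pdk3, which did not pass the test, held 1 CCAAT and 1 GGGCGG. Pdhx, without a probe set of its symbol alone, held 2 GGGCGG. For Pdk1 and Pcx, 1 window each held 0 matches. The other held 1 GGGCGG in Pdk1, and 1 CACGTG, 3 CCAAT and 1 GGGCGG in Pcx. Because the Pdha1 window held 0 matches, no match could be common to all risen members, and no comparison with Pdk4 was drawn from them. Over all 13 windows CACGTG was found in 2 (Pdk2 and Pcx), CCAAT in 6, GGGCGG in 6, and AGGTCA and GTAAACA in 0. Of 32851 windows of the same length over the genome, 6.02% held CACGTG, 33.8% CCAAT, 32.7% GGGCGG, 14.0% AGGTCA and 3.17% GTAAACA. These matches describe letters in the windows and not binding.

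Genes around the complex were read from 5 lists, each gene by its brightest probe set. Of 55 listed genes 40 were tested, and 20 were higher, 5 were lower and 15 did not pass the test (limma, adjusted p under 0.05). Over all 8619 tested genes 24.0% were higher and 23.0% lower, with a median log2 fold change of 0.01. With each array centred on its median the split of the 40 genes was 14 higher and 8 lower.

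Among genes that supply pyruvate or use it elsewhere, 5 of 12 rose, 1 fell and 6 did not pass (median log2 fold change 0.09). Pkm, the pyruvate kinase that makes pyruvate in most non-hepatic tissues, read 1472, 1393 and 1430.1 in TSR, against 534, 597 and 522 in control. It was 2.60 times higher, without overlap (log2 fold change 1.38, adjusted p = 7.8e-07, limma). Gpt, an alanine aminotransferase (log2 fold change 0.93), and Me1, the malic enzyme that makes NADPH and pyruvate (0.82), also rose. Pck1, the enzyme that draws on oxaloacetate for glyceroneogenesis, read 2130.1, 1776 and 2020 in TSR, against 4088, 3886 and 4474 in control. The groups were apart and the signal in TSR was 0.476 times that in control (log2 fold change -1.07, adjusted p = 1.0e-05, limma). Mpc1, a subunit of the mitochondrial pyruvate carrier, named after its values were seen, had a log2 fold change of 0.28 (adjusted p = 0.0023, limma), a call lost with median centring. The brightest gene of the list, Ldha (lactate dehydrogenase), had a log2 fold change of 0.17 and did not pass (adjusted p = 0.063, limma). It was called higher in 4 of 15 alternatives, among them quantile normalization (0.39, adjusted p = 7.6e-05, limma).

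**Figure D5:**
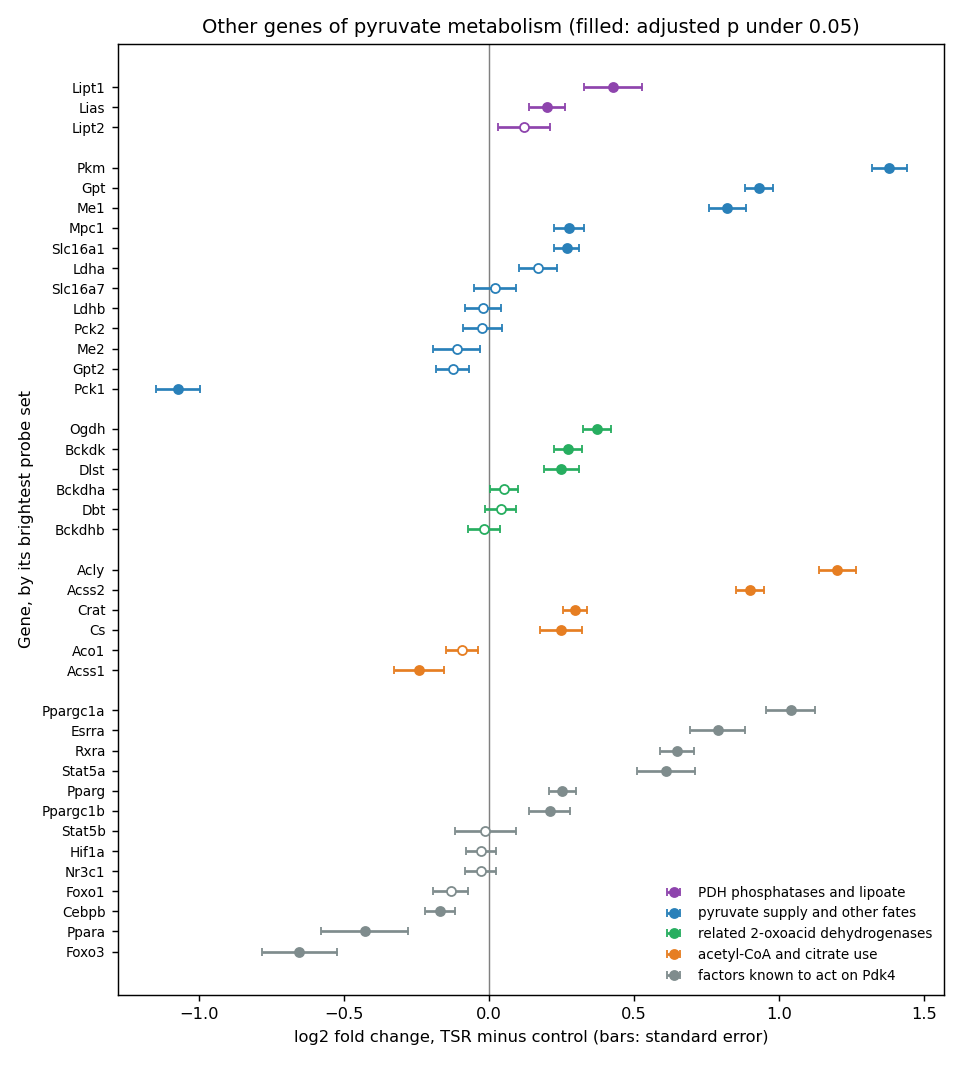
Log2 fold change of TSR over control for the tested genes of the 5 lists around the complex, each by its brightest probe set, with the standard error as bars, 1 colour per list and filled points for genes past an adjusted p of 0.05. Pkm lies highest at 1.38 and Pck1 lowest at -1.07.

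Of the genes that use acetyl-CoA or citrate, 4 of 6 rose and 1 fell (median 0.27). Acly, which cleaves citrate to cytosolic acetyl-CoA for lipid synthesis, averaged 10140 ± 877 in TSR and 4404 ± 80.5 in control (SD, n = 3 each), a log2 fold change of 1.20 (adjusted p = 2.2e-06, limma). Its other probe sets also rose, by 0.90 and, in the dimmest, by 3.12 on the log2 scale (adjusted p = 3.3e-09), so the size of the Acly rise depended on the probe set. Acss2, which activates acetate, rose (0.90), and Crat (carnitine acetyltransferase) rose (0.30). Cs, citrate synthase, had a log2 fold change of 0.25 (adjusted p = 0.021, limma), and its other probe sets gave 0.37 and -0.02. The call of this Cs set was lost in 7 of 15 alternatives. Acss1, the mitochondrial acetate-activating enzyme, fell by 0.24 on the log2 scale (adjusted p = 0.044, limma), a call lost in 8 of 15 alternatives, and was named after its values were seen.

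Of the related 2-oxoacid dehydrogenases, 3 of 6 rose and 0 fell (median 0.15). They were Ogdh, the first enzyme of the 2-oxoglutarate complex (log2 fold change 0.37, adjusted p = 0.00031, limma), Dlst, its E2 (0.25), and Bckdk, the kinase of the branched-chain complex (0.27). The Dlst call was lost in 3 of 15 alternatives, among them median centring (0.14). Bckdhb, a subunit of that complex, had a log2 fold change of -0.02 (adjusted p = 0.83, limma). Lipoate is the cofactor that Dlat carries. Lipt1, a lipoyltransferase, averaged 205 ± 7.54 in TSR and 153 ± 14.0 in control (log2 fold change 0.43, adjusted p = 0.0077, limma). Lias, lipoic acid synthase, had 0.20 (adjusted p = 0.027, limma), a call lost in 8 of 15 alternatives (0.093 and adjusted p = 0.338 with median centring). The phosphatase genes Pdp1, Pdp2 and Pdpr, whose products reverse the kinases, were not found as the single symbol of a probe set.

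Among 13 tested genes of factors known to act on Pdk4, 6 rose, 3 fell and 4 did not pass (median -0.01). Ppargc1a, a coactivator of nuclear receptors, averaged 344 ± 5.83 in TSR and 168 ± 13 in control (log2 fold change 1.04, adjusted p = 2.4e-05, limma). Of its 4 other probe sets, 3 passed with 0.59, 0.64 and 0.83, and 1 of nearly the same brightness did not (0.14, adjusted p = 0.35). Esrra, a nuclear receptor that works with it, averaged 717 ± 104 in TSR and 413 ± 10.7 in control (0.79, adjusted p = 0.00021). Rxra (0.65) and Pparg (0.25) also rose, Pparg not with median centring (0.15, adjusted p = 0.076). Foxo3, a FOXO factor, averaged 452 ± 83.2 in TSR and 706 ± 80.5 in control (-0.65, adjusted p = 0.0032). The other falls were Ppara (-0.43, adjusted p = 0.042), lost in 9 of 14 alternatives, and the brighter set of Cebpb (-0.17, adjusted p = 0.023), lost in 7 of 15, both named after their values were seen. The dimmer Cebpb set passed in the opposite direction (0.25, adjusted p = 0.016), so Cebpb has no single direction here. With the methods' t-test in place of limma, 5 genes of this list were called higher and 0 lower after Benjamini-Hochberg adjustment. The genes of these factors moved in both directions, and their part in the Pdk4 fall was not tested. Protein amounts or activity were not measured.

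Marker signals of several cell types differed between the groups. Summed deposited signals of 9 adipocyte markers were 85433 to 100025 in TSR and 100978 to 119473 in control, with 6 lower and 2 higher by the test. The 6 log2 falls ran from -0.19 (Plin4) to -0.46 (Adipoq). Bright probe sets moved with the scaling: quantile normalization took the log2 fold change of the regular Pcx set from 0.24 to 0.46. Summed macrophage markers were 13777 to 13938 in TSR and 20006 to 20755.0 in control, with 7 of 8 lower. Of 16 hepatocyte markers 15 were higher in TSR without overlap, and 10 of the 11 tested were higher by the test. Those 15 summed to 12469 to 12964 in TSR and 480 to 618 in control. The other, Cyp2e1, was lower (12455 ± 1574 in TSR and 16621 ± 1969 in control), and with it the sums were 23313 to 26953 in TSR and 15515 to 19246 in control. Alb (albumin) averaged 3205 ± 143 in TSR and 129 ± 31.6 in control. Of the hepatocyte markers, Fgb, Fgg, Ahsg and Tat were below the 25th percentile of the array on all control arrays and 0 markers were on all TSR arrays. Summed skeletal muscle markers were 2066 to 2142 in TSR and 607 to 662 in control, with 4 of 10 below the 25th percentile on every array. This rise was that of Acta1 (1871 ± 38.4 in TSR and 399 ± 10.6 in control): the 9 other muscle markers summed to 239 to 244 in TSR and 220 to 258 in control, and Myh1 and Mylpf were lower in TSR without overlap. Summed brown adipocyte markers were 391.8 to 437 in TSR and 191 to 204 in control. By the test 2 were higher, Dio2 (5.22 times) and Elovl3 (3.63 times). Cidea and Cox7a1 were also higher without overlap, as were 31.4% of all tested probe sets, but did not pass (adjusted p = 0.083 and 0.20, limma). Ucp1, the defining marker, was below the 25th percentile on every array. Pyruvate dehydrogenase genes are used by all of these cell types, and the part of these signals in the member results was not tested.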

How the data were processed

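RNA of epididymal WAT from 3 TSR and 3 control samples was measured on 1 array each. The deposited signals are MAS5 intensity values on a linear scale, scaled by the authors so that the middle 96% averaged about the same on every array (median signals 127 to 141). Raw scans and present or absent calls by the authors were left aside. The labels state freezing and Trizol extraction and the methods a storage reagent and a lipid tissue kit. Of 22690 probe sets, 64 were controls, 20393 carried 1 gene symbol, 691 several and 1606 none.

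Signals were taken to log2. Controls were left out, as were 35% of the other probe sets, those with the dimmest mean over all arrays (below 5.45), and 14707 probe sets were compared in limma 3.58.1 (R 4.3.3, eBayes with intensity trend, two-sided, Benjamini-Hochberg, threshold 0.05). The fit was tested on simulated data with independent noise and a small share of changed probe sets. That simulation held no shift shared by a whole group, so it cannot speak to one in these arrays. Ratios are of mean signals. Single within-array differences had exact permutation tests. Alternatives were the methods' t-test, other scalings, filters and a floor, a replicate block and leaving out each array. The members and lists were chosen with earlier results of these data known. Genes named were all members, up to 4 called genes with the largest changes and the brightest gene of each list, the 5 genes most like Pdk4, Alb, and those said to be named after their values were seen.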

Additional observations from a re-analysis of the deposited data

How the results depend on the processing

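Of the 14 member probe sets, 13 kept their direction and side of the threshold in all 15 alternatives, and Pcx lost its call with median centring only. Pdk4 ranged from -1.60 to -1.45, and from -1.54 to -1.45 with 1 array left out. Pdk3 ranged from 0.01 to 0.23 (adjusted p 0.164 to 0.925, limma and the methods' t-test). The 3 Pdk4 differences within arrays ranged, with 1 array left out, from -2.11 to -1.95 against Pdk1, from -2.09 to -1.91 against Pdk2 and from -1.72 to -1.52 against Pdk3. The members called numbered 13, or 12 with median centring, and all probe sets called with 1 array left out 5600 to 6391. Of the genes around the complex, between 17 and 27 were called, 19 to 23 with 1 array left out. Weak calls were lost in several alternatives: Lias, Dlst, Cs, Acss1, Ppara, Cebpb, with median centring Mpc1 and Pparg, and, in the methods' t-test, Foxo3. Ldha gained a call in 4 of 15 alternatives. Bckdhb turned to 0.026 with quantile normalization, 0.031 without TSR replicate 3 and 0.022 without control replicate 2 (-0.043 to 0.031 with 1 array left out). It did not pass the test in these settings. Aco1, at -0.09 and not past with the deposited signals, turned to 0.13 with quantile normalization (adjusted p = 0.16, limma). It was called lower with median centring (-0.20, adjusted p = 0.021, limma) and with the replicate block (-0.09, adjusted p = 0.026, limma). The dimmer Aco1 probe set was called higher with the deposited signals (0.13, adjusted p = 0.048, limma). The cause of these changes was not tested.

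Whether the replicate numbers pair the samples could not be told. Deviations from the group means correlated at 0.02, 0.19 and 0.17 for the same numbers (1, 2 and 3), and at -0.22 to 0.06 for unlike numbers. With the number as a replicate block, 7434 probe sets were called, against 6850 without it. The members called stayed 13, genes around the complex numbered 27 (21 higher, 6 lower), and the Pdk4 differences stayed -2.05, -2.0 and -1.63.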

Other observations

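The log2 signal of Pdk4 over the 6 arrays was followed most closely by that of Slc9a3r1, Ehhadh, Birc2, Uba7 and Vnn1 (Pearson r 0.9989 to 0.9993 over 6 arrays, as a description). The arrays share their groups, so a gene with a tight fall ranks high in this order. Ehhadh, a peroxisomal enzyme of fatty acid oxidation, averaged 616 ± 19.2 in TSR and 1124.5 ± 36.4 in control (SD, n = 3 each). Vnn1, a pantetheinase, averaged 303 ± 11.5 in TSR and 564 ± 13 in control.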
